A study of Mus musculus with 7 samples.

Results

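H3K27ac, the acetylation of histone H3 at lysine 27, was followed by ChIP-seq at 40 genes of the synapse in mouse embryonic stem (ES) cells in which NeuroD1, a transcription factor of neuronal differentiation, was switched on. The 40 genes encode proteins of synaptic vesicles, of transmitter release, of synaptic adhesion and of the postsynaptic side, and they were taken from the 21951 protein-coding genes of the GENCODE M21 annotation. A peak was assigned to a gene when it overlapped the gene body or the 5 kb on either side of it. This gave 222 of the 66841 merged peaks of the study, and 36 of the 40 genes held at least 1 of them. All 6 H3K27ac libraries were used.

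The cells were of the A2Lox line, an ES cell line built for doxycycline-inducible transgenes, and carried an HA-tagged NeuroD1 transgene in every group. The 0 h group received no doxycycline, and the 12 h and 48 h groups received 500 ng per ml of it for that time. Each group had 2 libraries, R1 and R2, and the labels do not say whether these came from separate cultures, so the p-values below measure only the spread between these libraries. The cells had been grown on mouse fibroblast feeders and were passaged off them before use. Reads in merged peaks totalled 6283103 to 8112895 per library. Counts were scaled here by the library total to the mean total of the 6 libraries.

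A synapse passes a signal when calcium enters the nerve terminal and docked vesicles fuse with its membrane. SNARE proteins carry out the fusion, complexins and synaptotagmins time it, and scaffold proteins of the active zone hold vesicles next to calcium channels. On the other side, receptors and their scaffolds take up the transmitter signal. Most of these genes serve mature neurons. H3K27ac marks active promoters and enhancers, so a peak at such a gene is a record of chromatin state and not of its RNA or protein, which these libraries do not measure.

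ES cell markers were acetylated at their starts in all libraries. For 7 of 7 such genes (Pou5f1, Sox2, Esrrb, Zfp42, Tfcp2l1, Dppa5a and Tdgf1) a peak lay at the transcription start site (TSS), and their summed scaled count was 18791 to 19121 without doxycycline, 21634 to 21722 after 12 h and 12587 (R1) to 16366 (R2) after 48 h. Tfcp2l1 added little to these sums, with means of 84.5, 47.4 and 40.5 scaled reads at 0 h, 12 h and 48 h. Its start peak was at percentiles 34.1, 21.6 and 6.86 of all start peaks. Relative to 0 h, 3 of the 7, Esrrb, Tfcp2l1 and Dppa5a, had lost H3K27ac by 48 h. Of 5 early neuronal markers, 4 had a start peak, with a sum of 577 to 626, 461 to 488 and 652 to 846, and Dcx had none. Among these, only Tubb3, a neuronal tubulin, gained by 48 h. Of 6 fibroblast markers only Col1a1 had a start peak, with a sum of 5.36 to 17.0 over all libraries, and Gata4, Gata6 and Sox17 of the primitive endoderm had none, while Dab2 held 13.9 to 74.4 scaled reads. The 2 libraries of 48 h differed from each other more than those of the other groups. The chi-square of their counts was 5.54 per degree of freedom, against 1.79 at 0 h and 1.42 at 12 h, and R1 exceeded R2 in 21 of 25 start peaks of the synaptic genes and in 79.9% of the start peaks of all genes, but in 37.3% of the peaks outside any start. In bulk libraries such as these, a change in the number of acetylated cells and a change of acetylation per cell cannot be told apart.

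Sequences from sites that gained H3K27ac are given first, since NeuroD1 binds E-boxes (CANNTG) and the gains are described below with reference to them. The windows are the central 300 bases of gained peaks that are described below, read from the plus strand of mm10, and were taken only where those bases held no annotated exon. There were 9 such windows, of which 5 are printed, 1 for each gene, chosen with their values known. For Pclo the window is the 250 bases upstream of its start in the RefSeq promoter table (build GRCm38.p6), and 27 of the 40 genes had an entry in that table. Capitals mark the E-boxes CAGATG (on either strand, so also CATCTG) and CAGCTG, which do not overlap each other here.
Cplx2, start peak, chr13:54371702-54372001: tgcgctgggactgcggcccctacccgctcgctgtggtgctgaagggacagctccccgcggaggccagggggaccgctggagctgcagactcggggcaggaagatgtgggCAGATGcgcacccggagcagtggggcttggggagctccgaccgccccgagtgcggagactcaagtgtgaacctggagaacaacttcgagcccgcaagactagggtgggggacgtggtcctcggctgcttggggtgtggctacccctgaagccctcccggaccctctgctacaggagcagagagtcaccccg
Scn3a, beside the start peak, chr2:65565620-65565919: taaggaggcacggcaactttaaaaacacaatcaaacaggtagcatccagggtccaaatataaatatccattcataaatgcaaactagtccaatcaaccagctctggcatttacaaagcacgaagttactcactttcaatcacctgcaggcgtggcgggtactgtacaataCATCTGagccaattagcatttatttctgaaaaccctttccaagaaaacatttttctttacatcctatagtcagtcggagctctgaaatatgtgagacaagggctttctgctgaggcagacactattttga
Rims2, intron, chr15:39273085-39273384: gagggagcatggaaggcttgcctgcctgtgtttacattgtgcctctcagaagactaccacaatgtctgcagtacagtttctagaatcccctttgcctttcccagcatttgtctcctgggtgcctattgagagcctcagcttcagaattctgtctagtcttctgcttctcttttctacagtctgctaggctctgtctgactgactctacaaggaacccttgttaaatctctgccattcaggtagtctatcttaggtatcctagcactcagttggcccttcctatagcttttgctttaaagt
Rims1, intron, chr1:22377470-22377769: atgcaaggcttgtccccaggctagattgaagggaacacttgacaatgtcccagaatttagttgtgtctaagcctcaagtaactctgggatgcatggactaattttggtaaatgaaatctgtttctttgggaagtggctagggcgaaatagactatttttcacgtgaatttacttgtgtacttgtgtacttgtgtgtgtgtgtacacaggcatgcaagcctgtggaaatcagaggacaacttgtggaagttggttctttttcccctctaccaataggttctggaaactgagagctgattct
Syt13, intron, chr2:92934763-92935062: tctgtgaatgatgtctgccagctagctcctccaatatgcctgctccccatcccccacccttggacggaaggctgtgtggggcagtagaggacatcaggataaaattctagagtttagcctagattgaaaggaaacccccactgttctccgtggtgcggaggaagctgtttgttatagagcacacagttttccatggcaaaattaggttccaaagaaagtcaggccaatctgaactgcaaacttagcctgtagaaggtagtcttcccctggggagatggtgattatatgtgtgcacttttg
Pclo, upstream of the start, chr5:14514668-14514917: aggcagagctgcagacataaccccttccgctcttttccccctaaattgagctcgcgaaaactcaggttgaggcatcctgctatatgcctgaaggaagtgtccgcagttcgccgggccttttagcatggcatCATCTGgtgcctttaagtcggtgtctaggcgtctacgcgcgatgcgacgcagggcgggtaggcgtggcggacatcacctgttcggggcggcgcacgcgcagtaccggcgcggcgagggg
The Cplx2, Scn3a and Pclo windows each held 1 CAGATG, and the Rims2, Rims1 and Syt13 windows held neither motif. The Pclo window is not the centre of its peak. The centres of the Pclo and Scn3a start peaks and of the Dlg4 peak at an internal start overlap exons and held neither motif. That of the exonic Rims1 peak held 1 CAGATG. Of the 4 windows not printed, 2 of Scn3a and 1 each of Rims2 and Rims1, those of Scn3a held 1 CAGATG and 1 CAGCTG, that of Rims1 held 2 CAGATG and 1 CAGCTG, and that of Rims2 held neither. Over all merged peaks, 18.5% of the central 300-base windows held CAGATG and 16.1% held CAGCTG, and of the 250-base upstream stretches of all RefSeq promoters 14.4% and 13.0% did. A match is a string of letters and not a measured binding site.

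The first question was which of these genes carry H3K27ac at all. A merged peak was found at 90% of the 40 genes, against 70.1% of all protein-coding genes. The window for such a peak grows with gene length, and the 2 sets were not matched for length. A start peak, the strongest peak within 2 kb of an annotated TSS, was found at 25 genes or 62.5%, against 59.9%. Without any peak were Snap25, a SNARE of the plasma membrane, Syt4, a synaptotagmin, Sv2b, a vesicle glycoprotein, and Slc17a6, a vesicular glutamate transporter. For these 4 genes no count exists in the table, and it cannot be said how many reads fell there. A further 11 genes had peaks in the body or the flanks but none at a start. They were Syt1, Syn2, Cplx1, Rab3c, Rims1, Nrxn3, Nlgn1, Gria1, Gria2, Grin1 and Grin2b, and so all 4 glutamate receptor genes lacked a start peak. By place, 52 of the 222 peaks lay in the start windows of their gene, 105 in introns, 42 over exons and 23 in the flanks. The start of another protein-coding gene was within reach of 21 peaks at 13 genes, for example the starts of Per1 beside Vamp2, of Apeh beside Bsn and of Mpv17l2 beside Rab3a, and reads there cannot be assigned to one gene or the other.

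Most start peaks held some reads before NeuroD1 was switched on. With at least 10 reads in both libraries as the requirement, 22 of the 25 start peaks were read at 0 h, and 23 each in the 12 h and 48 h groups. This low requirement, set without the input library, does not show that a peak stood out at 0 h. Cplx2 passed it there with 19 and 12 reads. The levels per kb of peak spanned a wide range. At 0 h they were highest at Cacna1a (171 scaled reads per kb), Unc13a (166), Vamp2 (164), Syt11 (162) and Homer1 (155), which lay between the 77.1th and the 83.6th percentile of the start peaks of all genes. At Vamp2 the 0 h libraries held 346 and 429.9 scaled reads, a spread wider than the gaps between these 5 genes, and their order is not resolved. At the low end were Cplx2 with 8.20 per kb, Syt13 with 13.9, Scn3a with 33.0, Gad1 with 34.2 and Syp with 37.2, at percentiles 0.179, 0.751, 5.60, 6.10 and 7.71. The start peaks of Syt13 and Gad1 had fewer than 10 reads in at least 1 library at both 0 h and 48 h, and that of Syp at 0 h. A peak in the start window did not always cover the TSS itself. It did so in 16 of the 25 genes. The start peaks of Nrxn2, Slc17a7 and Dlg2 lay 1259, 1240 and 1121 bp away, the last also within reach of the Tmem126b start. In 21 genes the start peak lay within 2 kb of the gene's 5′ end. In Cacna1a, Shank2, Homer1 and Gad1 it lay at an internal start.

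**Figure D1:**
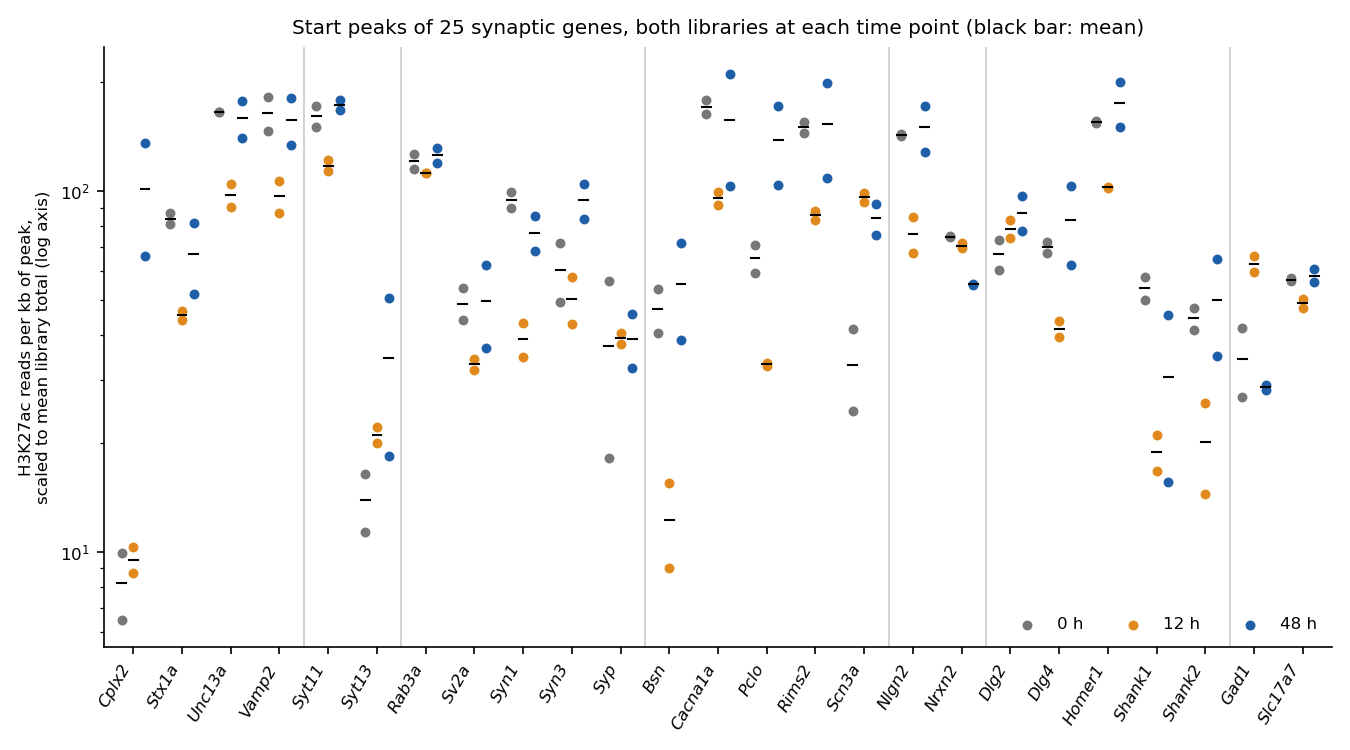
H3K27ac at the start peaks of 25 synaptic genes, in scaled reads per kb of peak (log axis), with 1 point per library, a black bar for the mean of 2 libraries, and grey lines between the roles. Cplx2 rose from 8.20 to 101 per kb between 0 h and 48 h, while many of the other genes were lower at 12 h and back near their 0 h level at 48 h.

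The second question was which genes gained or lost H3K27ac by 48 h. Of the 222 peaks, 30 gained (13.5%, against 8.56% of all merged peaks) and 9 lost (4.05%, against 5.45%) at 48 h vs 0 h (edgeR's quasi-likelihood test, Benjamini-Hochberg adjusted p under 0.05 over all peaks). The gains fell on 11 genes, with 7 peaks at Scn3a, 5 at Pclo, 4 at Rims2, 3 each at Rims1 and Syt13, 2 each at Dlg4 and Gria1, and 1 each at Cplx1, Cplx2, Rab3c and Nrxn3. The group of active zone and voltage-gated channel genes held 19 of the 30, of which 7 were at the sodium channel gene Scn3a. The losses fell on 7 genes, and Nrxn3 had both. At 19 of the 36 genes with a peak, no peak was called in either direction. In all 30 gained peaks, both 48 h libraries lay above both 0 h libraries. The test that picked these peaks favours such a split, so it is no separate support. The split of 30 gains and 9 losses became 33 and 4 with TMM factors and 19 and 0 with DESeq2. Without 0 h R1 the counts were 20 and 0, without 0 h R2 7 and 0, without 48 h R1 35 and 19, and without 48 h R2 41 and 15. Outside every start window, 22 of 154 peaks of these genes gained (14.3%, against 9.76% of all such peaks).

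**Figure D2:**
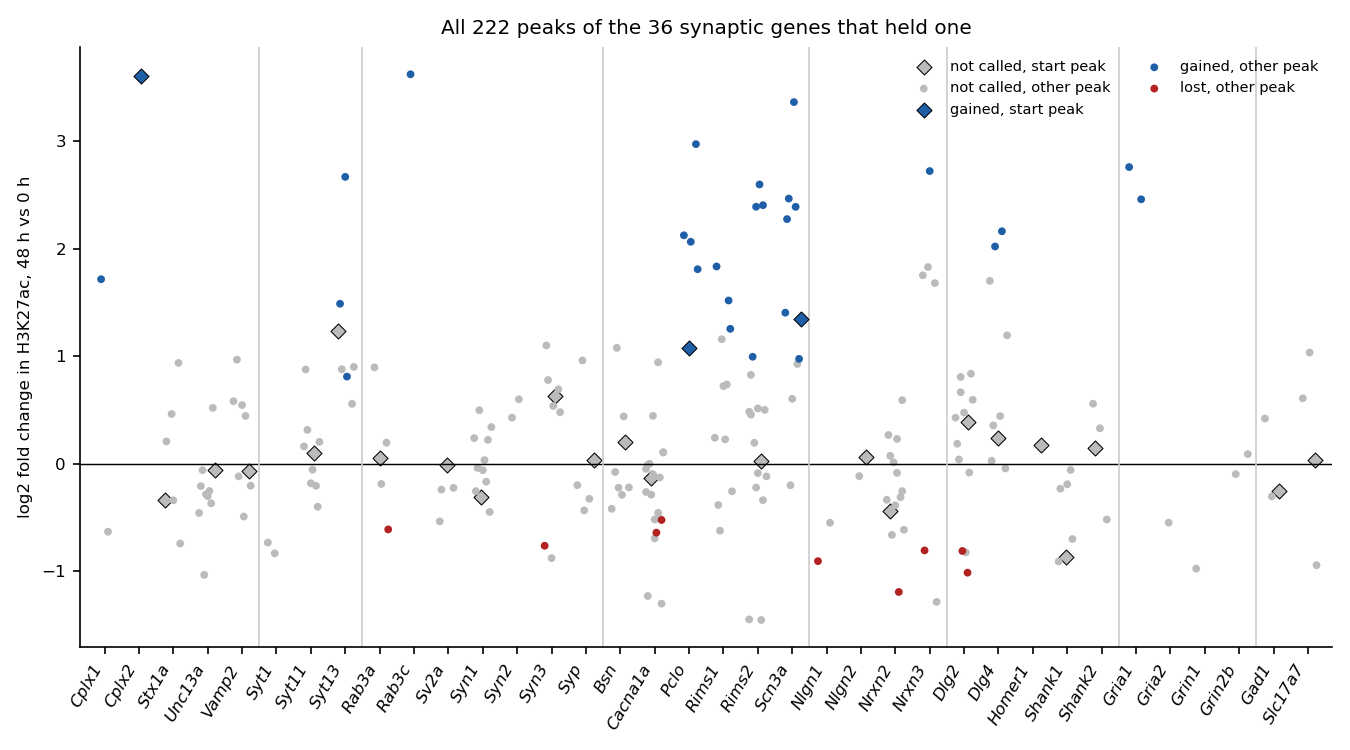
The log2 fold change in H3K27ac at 48 h vs 0 h of all 222 peaks, by gene and, between grey lines, by role. Diamonds are start peaks, circles other peaks, blue is gained, red lost and grey not called by edgeR (adjusted p under 0.05). The 3 gained start peaks are those of Cplx2, Pclo and Scn3a, and no start peak was lost. Values fitted to peaks with 3 reads or fewer in both 0 h libraries, such as that of Rab3c, are not precise.

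At the starts, 3 of 25 peaks gained by 48 h (12%, against 4.35% of all start peaks) and none was lost (against 2.97%). They belong to Cplx2, Pclo and Scn3a. DESeq2 called 3 gains as well and no loss. Without 0 h R2 only Cplx2 was called, without 48 h R1 there were 3 gains and 4 losses, and without 48 h R2 8 gains and no loss, so calls beyond these genes differed between the 48 h libraries. The median log2 fold change of the 25 start peaks was 0.06, as it was for all start peaks.

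Among the fusion genes, Cplx2, a complexin that binds the assembled SNARE complex, had the largest gain of any start peak here. Its only peak, at chr13:54370869-54372833, covers the annotated TSS and held 19.5 and 12.7 without doxycycline, 17.2 and 20.2 after 12 h, and 268 and 129.8 after 48 h (scaled reads). The 0 h and 12 h libraries overlapped, and both 48 h libraries stood far above them. The log2 fold change was 3.60 ± 0.35 (SE), adjusted p = 1.7e-07 in edgeR, and 3.38 ± 0.34 at 48 h vs 12 h, where adjusted p was 2.5e-06. Without 48 h R1 these values were 3.00 and 2.78, and both were called. The level moved from percentile 0.179 to percentile 42.1 of all start peaks, and the CAGATG of the Cplx2 window printed above lies within this peak. Its paralogue Cplx1 had no start peak, and a peak in its downstream flank gained, from 8.40 ± 4.63 scaled reads (SD, n = 2) to 28.3 ± 13.3, with a log2 fold change of 1.71 ± 0.48 (SE), adjusted p = 0.019 in edgeR. The starts of Stx1a and Vamp2, which encode SNAREs of the plasma membrane and of the vesicle, and of Unc13a, a priming factor, were acetylated from 0 h on. Their log2 fold changes at 48 h vs 0 h were -0.34 ± 0.24, -0.06 ± 0.19 and -0.06 ± 0.16, none of which passed the test.

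Of the synaptotagmin genes, Syt13 gained. Syt13 is an atypical synaptotagmin that does not act as a calcium sensor. Its called peak with the most reads lay in an intron, at chr2:92933674-92936150, centred 19814 bp downstream of the gene's 5′ end, the peak whose centre is printed above. The scaled counts were 81.1 and 58.4 without doxycycline, 197 and 191 after 12 h, and 192 and 199 after 48 h. Both later groups lay above 0 h and overlapped each other. The log2 fold change was 1.49 ± 0.23 (SE), adjusted p = 6.5e-05 at 48 h vs 0 h in edgeR. The neighbouring intronic peak, 22078 bp from the 5′ end, went from 55.8 ± 0.884 to 159 ± 2.50 at 12 h and back to 97.8 ± 6.41 at 48 h (SD, n = 2), and both steps were called. A small peak within the start window held 2 and 2 reads at 0 h and 18 and 10 at 48 h, 6.50 times (95% interval 2.27 to 25.5) as many per total, where the interval covers counting error only. Syt11 had a start peak of 370.0 ± 35.5 at 0 h and 396 ± 17.1 at 48 h, without a call. Syt1, the main calcium sensor of fast release, had only 2 intronic peaks, 442106 and 443093 bp from its 5′ end, and neither gained. The first held 19 and 11 without doxycycline, 19 and 32 after 12 h, and 8 and 10 after 48 h (reads), and the fall from 12 h to 48 h was called, with a log2 fold change of -1.51 ± 0.45 (SE), adjusted p = 0.021 in edgeR. Syt4 had no peak.

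Of the 36 peaks of the vesicle protein genes, 1 gained and 2 lost by 48 h (2.78% and 5.56%, against 8.56% and 5.45% of all merged peaks). The gain was the single peak of Rab3c, a small GTPase of synaptic vesicles, in an intron 183305 bp from the 5′ end. It held 3 and 0 without doxycycline, 18 and 14 after 12 h, and 15 and 28 after 48 h (reads), which is 10.1 times (95% interval 3.17 to 51.7) the 0 h share of reads at 12 h and 13.3 times (95% interval 4.26 to 67.1) at 48 h. Both later groups lay above 0 h, and they overlapped each other. Peaks were called on these same libraries, so a site this low at 0 h may be listed only through a later group. Its ratios may therefore be too large. The losses were at Syn3, a synapsin, 264195 bp into the gene, with -0.76 ± 0.22 (SE), adjusted p = 0.022 on the log2 scale in edgeR (adjusted p = 0.091 and 0.23 without 0 h R1 or R2), and in the flank of Rab3a at the start of Mpv17l2. By log2 fold change, the starts of Syn1, Syn3, Sv2a, Rab3a and Syp differed by -0.31, 0.63, -0.01, 0.06 and 0.04 at 48 h vs 0 h, without a call. The start peak of Rab3a does not cover its TSS. A weaker peak that does was lost at 12 h vs 0 h, by -0.94 ± 0.32 (SE), adjusted p = 0.0496 in edgeR. It gained from 12 h to 48 h, by 1.13 ± 0.32 (SE), adjusted p = 0.016 in edgeR. For Syp, synaptophysin, the widely used marker of vesicles, the main start peak held 16 and 5 without doxycycline, 11 and 12 after 12 h, and 12 and 11 after 48 h (reads), and the groups overlapped. Syn2 had 2 peaks, both at the start of Timp4, a gene that lies inside Syn2.

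Of the 71 peaks of the active zone and channel genes, 19 gained by 48 h (26.8%, against 8.56% of all merged peaks) and 2 lost (2.82%, against 5.45%). The 19 lay at 4 genes and were partly neighbouring peaks of 1 gene, and without the sodium channel gene Scn3a the group had 12 gains in 61 peaks. Pclo, which encodes the scaffold piccolo, gained at all 5 of its peaks. Its start peak at chr5:14514457-14515801 held 95.4 and 79.6 without doxycycline, 45.0 and 44.2 after 12 h, and 232 and 140.2 after 48 h (scaled reads), so that the 12 h libraries were the lowest and the 48 h libraries the highest. The log2 fold change from 0 h to 48 h was 1.08 ± 0.25 (SE), adjusted p = 0.005, made up of a step of -0.97 ± 0.28 to 12 h, with adjusted p = 0.022, and one of 2.05 ± 0.27 from there, with adjusted p = 3.8e-05, all in edgeR, and without 0 h R2 the adjusted p at 48 h vs 0 h was 0.16. An intronic peak 12243 bp downstream held 2 reads in each of the 4 earlier libraries and 19 and 16 at 48 h, 8.13 times (95% interval 2.91 to 31.5) the 0 h share. A group of 3 peaks, 71583 to 72647 bp downstream, gained by 48 h, and 2 of them were called at 12 h already. The first of the 3 had scaled counts of 6.16 and 6.37 without doxycycline, 18.2 and 20.2 after 12 h, and 28.9 and 26.7 after 48 h.

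Rims2, a scaffold that links vesicles to calcium channels, gained at 4 of its 17 peaks, all of them intronic. Its start peak held 402 ± 18.4 scaled reads at 0 h and 412 ± 171 at 48 h (SD, n = 2), without a call. The largest, 74973 bp into the gene and printed above, held 9.24 and 9.55 without doxycycline, 15 and 4.60 after 12 h, and 60.0 and 55.0 after 48 h (scaled reads), and only the 48 h libraries stood apart. Its log2 fold change was 2.60 ± 0.41 (SE), adjusted p = 8.3e-05 in edgeR. A pair of peaks 34245 and 34940 bp into the gene gained by 48 h relative to both earlier groups, the second with 6.81 ± 2.38, 16.4 ± 1.07 and 36.5 ± 1.76 scaled reads at 0 h, 12 h and 48 h and a log2 fold change of 2.40 ± 0.42 at 48 h vs 0 h (adjusted p = 3.5e-04, edgeR). Other intronic peaks of Rims2 gained at 12 h and had returned by 48 h, among them a peak 205954 bp into the gene, with 59.9 ± 9.64, 122 ± 9.94 and 67.9 ± 20.7 scaled reads in the 3 groups.

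Its paralogue Rims1 had no start peak, and its gains lay in 5 neighbouring peaks 418684 to 430277 bp from the 5′ end, in the 3′ part of the gene. The strongest, chr1:22376077-22379162, whose centre is printed above, held 105 and 95.5 without doxycycline, 413 and 394 after 12 h, and 244 and 328 after 48 h (scaled reads). The 3 groups did not overlap, with 12 h the highest. Measured against 0 h, 12 h was higher by 2.01 ± 0.20 (SE), adjusted p = 3.5e-07, and 48 h by 1.52 ± 0.21 (SE), adjusted p = 1.3e-05, on the log2 scale in edgeR. All 5 were called at 12 h, and 3 of them at 48 h. Of those 3, the peak over an exon had a log2 fold change of 1.83 ± 0.39 and the intronic peak from 22386561 one of 1.25 ± 0.31, and both calls were lost without 0 h R2, where the adjusted p was 0.069 and 0.2. The last of these peaks, which held 2 CAGATG and 1 CAGCTG in its central 300 bases, also fell from 12 h to 48 h, by 0.83 on the log2 scale.

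Scn3a, the pore subunit of a sodium channel known from the developing brain, gained 7 of its 10 peaks, among them all 4 of its start window. The start peak at chr2:65566350-65568035 held 69.8 and 41.4 without doxycycline, 158 and 167 after 12 h, and 128 and 156 after 48 h (scaled reads). Both later groups lay above 0 h, and the 48 h libraries were just below those of 12 h, with log2 fold changes in edgeR of 1.54 ± 0.26 (SE), adjusted p = 2.0e-04 for 12 h, and of 1.35 ± 0.26 (SE), adjusted p = 7.8e-04 for 48 h. Without 0 h R2 the adjusted p at 48 h was 0.094. The adjoining peak 1858 bp into the gene, printed above with its CAGATG, held 1 and 7 without doxycycline, 37 and 42 after 12 h, and 33 and 59 after 48 h (reads), and its log2 fold change was 3.36 ± 0.49 (SE), adjusted p = 3.7e-05 at 48 h vs 0 h in edgeR. It was 2.55 without 0 h R1 and 5.26 without 0 h R2, and called in both cases. Upstream of the TSS, the 2 small peaks of the start window held 3 and 1 and 2 and 3 reads at 0 h and 5.80 times (95% interval 2.00 to 22.9) and 5.39 times (95% interval 2.06 to 17.8) the 0 h share at 48 h. An intronic peak 3500 bp into the gene rose to 38.0 ± 8.24 from 7.89 ± 5.35 scaled reads, a log2 fold change of 2.27 ± 0.43 (adjusted p = 7.6e-04, edgeR), or 3.19 without 0 h R2. A peak that overlaps the 3′ end of the gene and is centred just past it, 110854 bp from the 5′ end, held 19.5 and 21.2 without doxycycline, 35.4 and 29.4 after 12 h, and 57.7 and 50.7 after 48 h (scaled reads), with a log2 fold change of 1.40 ± 0.32 (SE), adjusted p = 0.0039 in edgeR, and with adjusted p = 0.065 and 0.077 without 0 h R1 and R2. Cacna1a, the pore subunit of the P/Q-type calcium channel, and Bsn, which encodes bassoon, were not called at their starts, where log2 fold changes were -0.13 ± 0.22 and 0.20 ± 0.44. Cacna1a had the most peaks of all members, 20, and lost 2 of them, one over an exon (-0.64) and one in the downstream flank (-0.52).

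**Figure D3:**
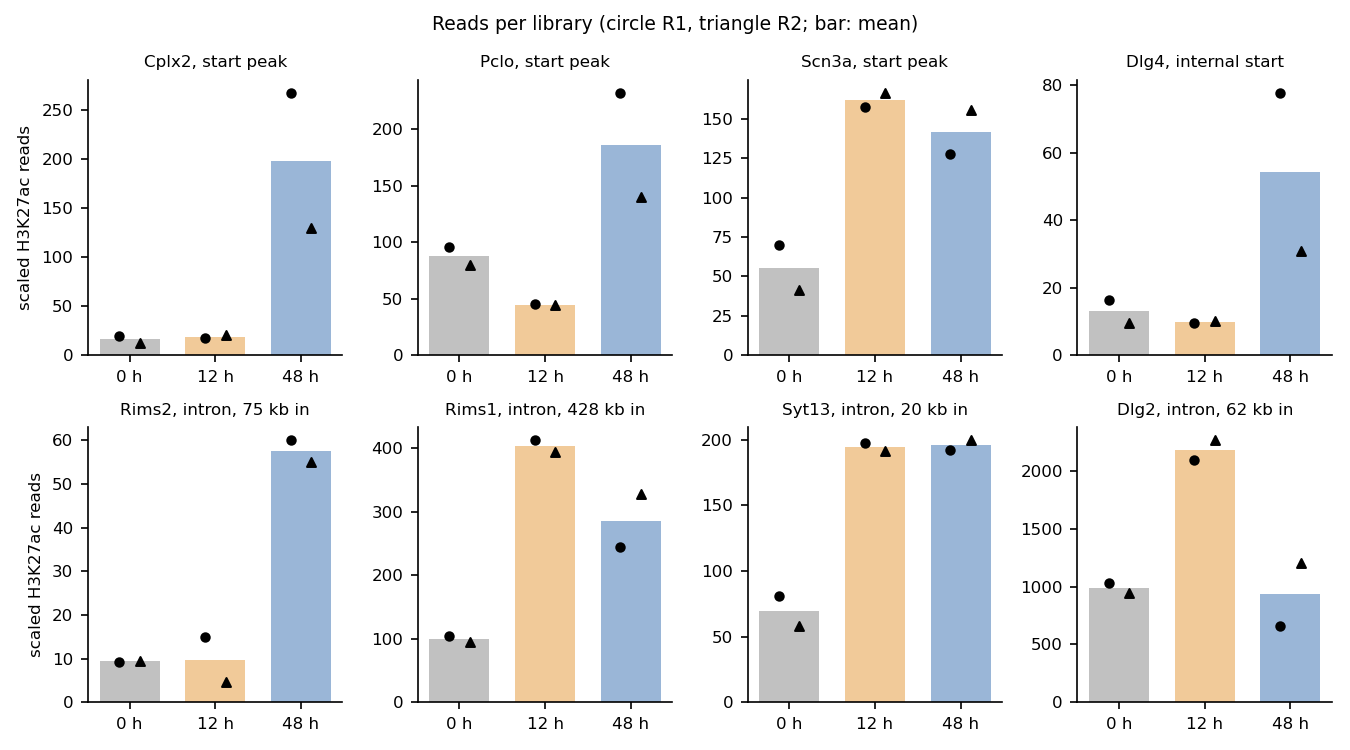
Scaled H3K27ac reads at 8 peaks, with bars from 0 for the mean of the 2 libraries of a time point, circles for R1 and triangles for R2. Cplx2, Dlg4 and the Rims2 peak were not called at 12 h and gained by 48 h, Rims1, Syt13 and Scn3a had gained at 12 h already, and the Dlg2 peak was higher at 12 h than in the other groups.

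Of the 24 peaks of the adhesion genes, 1 gained and 3 lost by 48 h (4.17% and 12.5%, against 8.56% and 5.45% of all merged peaks), and DESeq2 called none of the 222 peaks as lost. Nrxn3, a neurexin of the presynaptic membrane, had a group of 4 small intronic peaks 185898 to 188415 bp downstream that all gained at 12 h. In 3 of the 4, 0 h R2 had no read. One of the group held 3 and 2 without doxycycline, 27 and 23 after 12 h, and 5 and 13 after 48 h (reads), which is 9.49 times (95% interval 3.81 to 30.5) the 0 h share at 12 h and 3.34 times (95% interval 1.20 to 11.5) at 48 h, and another of them was still called at 48 h vs 0 h. Far downstream, 1358890 bp from the 5′ end, Nrxn3 lost H3K27ac, with scaled counts of 187 and 208 without doxycycline, 72.9 and 73.6 after 12 h, and 147 and 81.7 after 48 h. The log2 fold change against 0 h was -1.43 ± 0.25 (SE), adjusted p = 4.2e-04, after 12 h, and -0.80 ± 0.24 (SE), adjusted p = 0.028, after 48 h, in edgeR, and the step between 12 h and 48 h was not called. The latter call was lost without 0 h R1, 0 h R2 or 48 h R2 (edgeR, adjusted p = 0.11, 0.28 and 0.11). Nlgn1, a neuroligin of the postsynaptic membrane, lost its stronger intronic peak, which went from 97.2 ± 12.6 to 51.4 ± 9.94 scaled reads, with a log2 fold change of -0.90 ± 0.26 (SE), adjusted p = 0.021 in edgeR, and the adjusted p was 0.068 and 0.26 without 0 h R1 and R2. An intronic peak of Nrxn2 fell from 31 and 29 reads to 14 and 14, a log2 fold change of -1.19 ± 0.39 (SE), adjusted p = 0.041 in edgeR. The start of Nlgn2, shared with Tmem256, was not called at 48 h, with a log2 fold change of 0.07 ± 0.18.

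In the postsynaptic scaffold genes, 2 of 33 peaks gained and 2 lost by 48 h. Both shares were 6.06%, against 8.56% gained and 5.45% lost of all merged peaks. Both gains were in Dlg4, whose product is the main scaffold of excitatory synapses. One lies at an internal annotated start, 13417 bp downstream of the 5′ end, and held 16.4 and 9.55 without doxycycline, 9.65 and 10.1 after 12 h, and 77.7 and 31.0 after 48 h (scaled reads). The 48 h libraries were above all others and differed from each other, and the log2 fold change was 2.02 ± 0.42 (SE), adjusted p = 0.002 in edgeR, with an adjusted p of 0.12 without 0 h R2 and a value of 1.24 without 48 h R1. The other, over an exon 26630 bp downstream, held 3 and 9, 7 and 2, and 44 and 12 reads in the 0 h, 12 h and 48 h libraries, with a log2 fold change of 2.16 ± 0.65 (SE), adjusted p = 0.027 in edgeR. The start peaks of Dlg4, Shank1, Shank2, Homer1 and Dlg2 differed on the log2 scale by 0.24, -0.87, 0.14, 0.17 and 0.39 at 48 h vs 0 h, none called. Those of Shank2 and Homer1 lie at internal annotated starts, 282532 and 4419 bp downstream of the 5′ end. Both losses were intronic peaks of Dlg2, one 50711 bp into the gene with 77.2 ± 1.11 scaled reads at 0 h and 43.9 ± 2.39 at 48 h, the other 1271444 bp into it with 52.2 ± 4.20 and 25.3 ± 9.15. Both calls were lost without 0 h R1 (adjusted p = 0.18 and 0.12, edgeR) and without 0 h R2.

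Receptor and transmitter genes were the sparsest. Of the 6 peaks of the glutamate receptor genes, 2 gained by 48 h (33.3%, against 8.56% of all merged peaks), both at Gria1, and none lost (against 5.45%). Gria1, an AMPA receptor subunit, had 2 small intronic peaks, 24161 and 24809 bp downstream, with 4 and 3 reads in all at 0 h. Their shares at 48 h were 5.80 times (95% interval 2.00 to 22.9) and 7.43 times (95% interval 2.26 to 38.5) those at 0 h, and both were called by edgeR (adjusted p = 0.028 and 0.045). In the second the 48 h libraries held 4 and 20 reads, and 4 is close to the 3 reads of 0 h R1. Gria2, another AMPA receptor subunit, had 1 intronic peak with a log2 fold change of -0.55 ± 0.28, and Grin1, the obligatory NMDA receptor subunit, 1 exonic peak with -0.97 ± 0.41, neither called. Grin2b, a regulatory NMDA receptor subunit, had a peak over an exon near its 3′ end that was higher at 12 h only, with 65.4 ± 12.6, 119 ± 8.10 and 68.8 ± 21.9 scaled reads at 0 h, 12 h and 48 h. Of the transmitter genes, Slc17a7, a vesicular glutamate transporter, had 72.5 ± 0.990 scaled reads at its start peak at 0 h and 74.5 ± 4.49 at 48 h. That peak lies 1240 bp from the TSS. A weaker peak that covers the TSS held 15 and 14 reads at 0 h and 27 and 20 at 48 h. Its log2 fold change of 0.61 ± 0.43 (SE) was not called. Gad1, which makes GABA, was low, with 8 and 12 without doxycycline, 17 and 22 after 12 h, and 8 and 10 after 48 h (reads) at its start peak. None of the 7 peaks of the transmitter genes was called at 48 h vs 0 h, too few to set against the shares of all merged peaks.

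**Figure D4:**
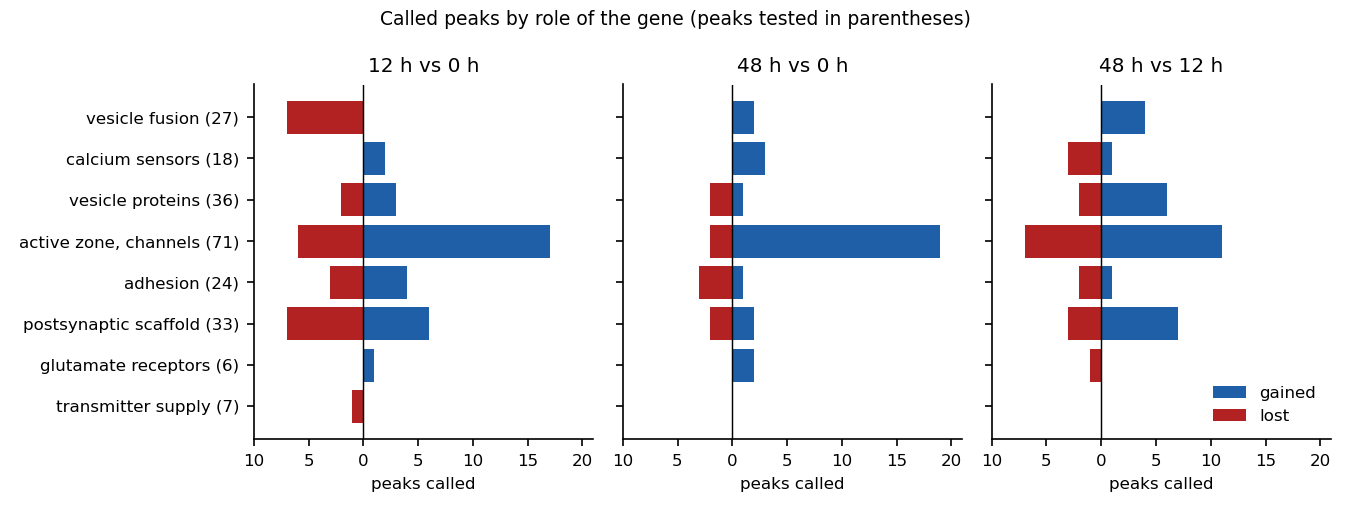
Peaks gained (blue, to the right) and lost (red, to the left) in each comparison, by role of the gene, with the number of peaks tested in parentheses (edgeR, adjusted p under 0.05). The active zone and channel genes held 17 of the 33 gains at 12 h and 19 of the 30 gains at 48 h, from 71 of the 222 peaks, and 12 of the gains at each time with the sodium channel gene Scn3a left out.

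At 12 h vs 0 h, 33 of the 222 peaks gained (14.9%, against 9.93% of all peaks) and 26 lost (11.7%, against 6.03%). The starts moved mostly downwards, with 13 of 25 lost (52%, against 21.7% of all start peaks) and 1 gained, that of Scn3a (4%, against 1.9%). The 13 genes were Stx1a, Vamp2, Unc13a, Syn1, Rims2, Bsn, Pclo, Cacna1a, Nlgn2, Dlg4, Shank1, Shank2 and Homer1. Unc13a, for example, held 961 and 957 without doxycycline, 604 and 524 after 12 h, and 1030.3 and 813 after 48 h (scaled reads), with both 12 h libraries below all others. Its log2 fold change was -0.77 ± 0.16 (SE), adjusted p = 0.0021 at 12 h vs 0 h in edgeR, and 0.71 ± 0.16 at 48 h vs 12 h. At Bsn, the start peak held 14 and 18 without doxycycline, 3 and 6 after 12 h, and 23 and 16 after 48 h (reads). The 12 h group was again the lowest. The median log2 fold change was -0.60 for the 25 start peaks and -0.41 for the start peaks of all genes, -0.08 for all merged peaks.

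The other starts that fell at 12 h are given here in scaled reads. The Vamp2 start held 346 and 429.9 without doxycycline, 251 and 205 after 12 h, and 427 and 316 after 48 h. That of Stx1a held 135 and 126 without doxycycline, 68.6 and 72.7 after 12 h, and 128 and 80.8 after 48 h. For Syn1 the counts were 75.9 and 83.8 without doxycycline, 36.5 and 29.4 after 12 h, and 72.2 and 57.6 after 48 h. In all 3 genes both 12 h libraries were below all others, and Syn1 had the larger drop, by 1.28 on the log2 scale. The Rims2 start held 389 and 415 without doxycycline, 236 and 223 after 12 h, and 533 and 291 after 48 h. That of Cacna1a, an internal start, held 483 and 440.5 without doxycycline, 269 and 247 after 12 h, and 568 and 279 after 48 h. In both, 48 h R1 was the highest library and 48 h R2 lay between the 12 h and the 0 h libraries. The Nlgn2 start held 434 and 439 without doxycycline, 259 and 206 after 12 h, and 525 and 392 after 48 h. Its log2 fold change from 0 h to 12 h was -0.91 ± 0.19 (SE), adjusted p = 0.002 in edgeR. On the postsynaptic side, the Dlg4 start held 293 and 273 without doxycycline, 159.8 and 178 after 12 h, and 419.7 and 253 after 48 h. For Homer1, which encodes a scaffold that binds Shank proteins, the counts were 361 and 358 without doxycycline, 238 and 236 after 12 h, and 464 and 347 after 48 h. In each of these, the 12 h libraries were the lowest and did not overlap the others. The Shank2 start held 51.3 and 44.6 without doxycycline, 27.9 and 15.6 after 12 h, and 69.9 and 37.8 after 48 h. That of Shank1 held 32.8 and 38.2 without doxycycline, 13.9 and 11 after 12 h, and 30.0 and 10.3 after 48 h. At Shank1, 48 h R2 was below the 12 h libraries and 48 h R1 was close to 0 h. Shank1 and Stx1a were the 2 of the 13 that were not called as gained between 12 h and 48 h.

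Most of these starts gained again. From 12 h to 48 h, 14 of 25 start peaks gained (56%, against 33.7%) and none lost (against 2.4%), and 11 of these 14 were among the 13 that had fallen. Both calls use the same 12 h libraries, so a low count there favours both, and the overlap is no separate support. The same overlap over all start peaks is not given here. Of the 13, 1 differed between 48 h and 0 h, Pclo, which ended higher. Syt11, Syn3 and Cplx2 gained from 12 h to 48 h without a call at 12 h vs 0 h. The Syt11 start held 395 and 345 without doxycycline, 259 and 279.6 after 12 h, and 409 and 384 after 48 h (scaled reads). That of Syn3 held 49.3 and 34.0 without doxycycline, 39.7 and 29.4 after 12 h, and 72.2 and 57.6 after 48 h. Over all 222 peaks, 30 gained (13.5%, against 10.7%) and 18 lost (8.11%, against 8.43%) in this step. Without 12 h R1, 12 h R2, 48 h R1 or 48 h R2 the gained starts numbered 4, 2, 9 and 16, and the gained and lost peaks 8 and 3, 4 and 3, 20 and 11, and 58 and 34.

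The fall at 12 h moved with base composition, whose part in it was not tested beyond the fits given here. Member peaks that lost at 12 h had a median GC content of 59.7%, those that gained 42.6%, and the 25 start peaks 58.4%, against 50.2% for all peaks. Across the 66783 merged peaks with a GC value, which share 6 libraries, Pearson's r between GC content and the log2 fold change was -0.495 at 12 h vs 0 h. A weaker trend of the same sign was present after 48 h relative to 0 h, with r = -0.209. For the step from 12 h to 48 h, r was 0.306. Member peaks gained by 48 h had a median GC content of 44.8%, and those lost by then 57.2%. When a smooth curve of counts on GC content was taken out of each library, 8 of the 25 starts were lost and 2 gained by 12 h, and 14 gained and 2 lost between 12 h and 48 h. TMM factors gave 12 losses and 1 gain at 12 h, and DESeq2 4 and 1. The calls of this step also rested on both libraries of each group. Without 0 h R1, 0 h R2, 12 h R1 or 12 h R2 the losses at starts numbered 4, 0, 3 and 0, and over all 222 peaks the gains and losses at 12 h were 21 and 9, 9 and 1, 17 and 9, and 13 and 2.

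Of the 33 peaks gained at 12 h, 28 were intronic, as were 105 of all 222 peaks. Of the 33, 14 were also called as gained at 48 h vs 0 h, and 12 lost H3K27ac from 12 h to 48 h. The gain and the later loss use the same 12 h libraries, so a high count there favours both calls. The matching shares over all merged peaks gained at 12 h are not given here. Of the 30 peaks gained at 48 h, 15 were not called at 12 h and 1, the Pclo start, had been lost there. Among the 12 that lost it again, the highest in reads was at Dlg2, a scaffold paralogue of Dlg4. A peak of 10034 bp there, 62386 bp into the gene, held 1032 and 945 without doxycycline, 2096 and 2262 after 12 h, and 658 and 1206 after 48 h (scaled reads), and the 12 h libraries stood apart from the other 4. The log2 fold change was 1.14 ± 0.19 (SE), adjusted p = 1.8e-04 for the rise, and -1.22 ± 0.19 for the fall from 12 h to 48 h, in edgeR. A second wide peak of Dlg2, 93410 bp into the gene, did the same (1.10 ± 0.19 and -1.06 ± 0.19). In Syn3, an intronic peak 63197 bp from the 5′ end held 11 and 4 without doxycycline, 44 and 63 after 12 h, and 10 and 18 after 48 h (reads), a log2 fold change of 2.73 ± 0.41 (SE), adjusted p = 6.5e-05 at 12 h vs 0 h in edgeR. A nearby peak held 3 and 2 without doxycycline, 19 and 21 after 12 h, and 2 and 6 after 48 h (reads). Peaks of this time course also lay in Syt13, Rims1, Rims2, Nrxn3 and Grin2b, as given above.

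Summing all peaks of a gene gave a single value for each of 36 genes. At 48 h vs 0 h, 7 genes gained (19.4%, against 6.26% of the 15390 genes with peaks) and 1 lost (2.78%, against 4.78%). The log2 fold changes were 3.60 ± 0.40 for Cplx2, 1.34 ± 0.22 for Pclo, 1.19 ± 0.15 for Syt13, 0.78 ± 0.15 for Scn3a and 0.77 ± 0.12 for Rims1 (edgeR, adjusted p = 2.7e-04, 0.0026, 5.3e-04, 0.0076 and 0.0022). The Rims1 sum, for example, was 413 and 371 without doxycycline, 901 and 938 after 12 h, and 619.5 and 713 after 48 h (scaled reads), and the Syt13 sum 185 and 158 without doxycycline, 429 and 429.6 after 12 h, and 419.7 and 366 after 48 h. Rab3c and Gria1 gained as well, and since they had 3 and 7 reads at 0 h their ratios stand above by peak. Nlgn1 was lost, at -0.88 ± 0.25 (adjusted p = 0.043, edgeR). A GC offset gave 9 gains and 3 losses. Without 0 h R2 only Cplx2 and Syt13 were called, without 48 h R1 9 gains and 9 losses, and without 48 h R2 12 gains and 4 losses. Rims2 and Dlg4, which gained 4 and 2 single peaks, did not pass as sums (0.26 ± 0.10 and 0.43 ± 0.20).

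At the other steps the sums depended on the scaling. At 12 h vs 0 h, 8 genes gained (22.2%, against 6.63%) and 12 lost (33.3%, against 29.1%), where the median of all genes was -0.31 on the log2 scale. With TMM factors that median was -0.02, and 8 members gained and 2 lost. With the GC offset 7 gained and 6 lost. Leaving out any 1 of the 4 libraries of this step left 2 to 3 gains and no loss. The 8 genes were Syt13, Rab3c, Rims1, Rims2, Dlg2, Gria1, Grin2b and Scn3a, and the 12 were Stx1a, Vamp2, Rab3a, Unc13a, Bsn, Nrxn2, Nrxn3, Nlgn2, Dlg4, Shank1, Homer1 and Cacna1a. The log2 fold changes put Rims1 at 1.23 ± 0.12, Dlg2 at 0.95 ± 0.17 and Syt13 at 1.32 ± 0.15. At 48 h vs 12 h, 10 genes gained (27.8%, against 39%) and 4 lost (11.1%, against 6.98%), and with TMM factors 7 gained and 10 lost. The 10 genes were Vamp2, Syn2, Cplx2, Unc13a, Bsn, Pclo, Nlgn2, Dlg4, Shank1 and Homer1, and the 4 were Syt1, Rims1, Dlg2 and Grin2b.

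E-boxes were counted in the central 300 bases of all peaks. Of the 30 peaks gained at 48 h, 12 held CAGATG (40%), against 35 of the other 192 member peaks (18.2%), 18.5% of all merged peaks and 27.7% of all peaks gained at 48 h. For CAGCTG the shares were 20%, 19.3%, 16.1% and 20.2%. These are counts of letters over peaks that are partly neighbours of each other, and no test was made of them.

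A wider list of 77 other synaptic genes was counted in the same way. A peak was found at 59 of them (76.6%) and a start peak at 46 (59.7%). Of their 298 peaks, 47 gained (15.8%, against 8.56% of all merged peaks) and 17 lost (5.7%, against 5.45%) by 48 h, relative to 0 h. By 12 h, 34 had gained (11.4%, against 9.93%) and 30 had lost (10.1%, against 6.03%). Of their 45 distinct start peaks, 6 gained (13.3%, against 4.35% of all start peaks) and none lost by 48 h. After 12 h, 2 had gained (4.44%, against 1.9%) and 11 had lost (24.4%). That share of losses was 21.7% for all start peaks and 52% for the 25 start peaks of the 40 genes. The median log2 fold change after 12 h was -0.55 in this list, -0.60 for those 25 and -0.41 for all start peaks. Start peaks had a median log2 fold change of 0.21 at 48 h in this list, against 0.06 for the 25 start peaks described above.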

How the data were processed

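H3K27ac ChIP-seq libraries of A2Lox ES cells with inducible NeuroD1 were analysed at 0 h, 12 h and 48 h of doxycycline, with 2 libraries in each group, which were taken from the labels. The 1 input library was not used here. Per the labels and the study's methods, the authors aligned the reads with Bowtie2 to mm10, used SAMtools 0.1.19, called peaks with MACS2, merged the peaks and counted reads in each merged peak with QuasR, and the deposited values are these whole-number counts, not normalised. Because peaks were called first, sites without a peak have no count, and the read depth outside peaks is unknown here.

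From these counts, peaks were assigned to genes with GENCODE M21 as described above. edgeR 4.0.16 (glmQLFit and glmQLFTest, R 4.3.3) was fitted to all 66841 peaks, and to the summed peaks of 15390 genes, with the column totals as offset, all 6 libraries in 1 fit with 3 residual degrees of freedom, no filter and no block. P-values were adjusted by Benjamini-Hochberg over all features, with a threshold of 0.05. The biological coefficient of variation was 14.9% for peaks. Start percentiles are ranks of reads per kb among all start peaks. Intervals of read ratios are exact 95% intervals for counting error only, and are given in place of fitted fold changes where both 0 h libraries had 3 reads or fewer. They do not allow for the choice of peaks on the same libraries, which can make ratios at such sites too large.

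On simulated counts with 200 peaks changed 2-fold between 48 h and 0 h, edgeR found 69 of them and made 3 wrong calls, and DESeq2 1.42.0 found 42 and made 1. With 200 of the 15390 summed genes changed in the same way, edgeR found 153 and made 15 wrong calls. The simulated counts had the same spread in all libraries, no trend with GC content and fewer changed features than were called here. These error counts therefore need not hold for the data. Alternatives were TMM factors, DESeq2, a filter of 10 counts in at least 2 libraries, the replicate number as a block, the 4 libraries of a comparison alone, a GC offset (lowess, span 0.3) with and without the block, leaving out each library, and other windows.

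All 40 members, their roles and the lists of other synaptic genes and markers were chosen with earlier results of these data known. Named with values are every start peak called in any comparison, the 10 largest gains and 5 largest losses at other peaks at 48 h vs 0 h with a mean of at least 20 reads, and members called as sums. Other peaks with values in the text were picked after their values were seen. Sequences were read from GRCm38 and from a RefSeq promoter table (pysam 0.24.0), and tables and plots were made with Python 3.11.15, pandas 2.3.3, scipy 1.17.1 and matplotlib 3.10.9.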

Additional observations from a re-analysis of the deposited data

Results flagged for a closer look

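These results differed between the effect of 12 h and the effect of 48 h of doxycycline, by edgeR's test of 48 h vs 12 h with adjusted p under 0.05, and each is given as that log2 difference. Among the start peaks, the difference was 0.70 for Vamp2, 0.555 for Syt11, 0.97 for Syn1, 0.91 for Syn3, 0.84 for Rims2, 0.71 for Unc13a and 0.71 for Cacna1a. It was 0.98 for Nlgn2, 0.99 for Dlg4, 0.77 for Homer1, 1.30 for Shank2 and 2.08 for Bsn. For Cplx2 and Pclo, the start peaks that also ended above 0 h, it was 3.38 and 2.05. The values of Cacna1a, Homer1 and Shank2 belong to internal starts. Among other peaks, the intronic Rims2 peaks from 39272734 and from 39232955 differed by 2.58 and 1.15, and a further peak at an internal start of Dlg4 by 2.41. The Rims1 peak from 22386561 went the other way, with a difference of -0.83. Beside these values, 48 h R1 exceeded 48 h R2 in 21 of the 25 start peaks, and without 48 h R1 the difference was smaller in each of the 14 start peaks named here and was called in 9 of them. Those 9 were Vamp2, Syt11, Syn1, Unc13a, Nlgn2, Dlg4, Homer1, Cplx2 and Pclo, at 0.48, 0.51, 0.81, 0.53, 0.76, 0.58, 0.55, 2.78 and 1.65. The other 5 were not called, with 0.12 for Cacna1a (adjusted p = 0.68), 0.34 for Rims2 (adjusted p = 0.12), 0.75 for Syn3 (adjusted p = 0.075), 1.60 for Bsn (adjusted p = 0.088) and 0.82 for Shank2 (adjusted p = 0.11) in edgeR. No group had enough libraries for a test of single outlying samples.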

How the results depend on the processing

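No named result reversed its direction under any setting. Of 99 calls for named peaks and sums, 22 were kept under all settings and 58 under all settings other than leaving out a library; of the 20 named gains at 48 h vs 0 h, 9 and 19 were. DESeq2 called fewer member peaks, 23 at 12 h vs 0 h against 59, 19 at 48 h vs 0 h against 39 and 23 at 48 h vs 12 h against 48, and 5 start peaks at 12 h vs 0 h against 14. At 12 h vs 0 h, summed genes called numbered 20 with column totals, 10 with TMM, 10 with DESeq2 and 13 with the GC offset, and TMM moved the median of all genes from -0.31 to -0.02. Fitting only the 4 libraries of 48 h vs 12 h gave 31 peaks. Leaving out 1 library gave, at 12 h vs 0 h, 10 to 90 peaks, 2 to 24 genes and 1 to 15 start peaks, at 48 h vs 0 h, 7 to 56 peaks, 2 to 18 genes and 1 to 8 start peaks, and at 48 h vs 12 h, 7 to 92 peaks, 1 to 24 genes and 2 to 16 start peaks. The omission of 0 h R2 removed most calls at 48 h vs 0 h, and such fits have fewer libraries. Counts under the filter on low counts and under the other windows, overlaps and start definitions were within 1.5 times those reported.

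Replicate numbers did not pair the libraries, as the correlations of deviations between same-numbered libraries were -0.0362, -0.0496 and 0.078. With the replicate block, 60, 42 and 49 peaks, 20, 8 and 16 genes and 14, 3 and 14 start peaks were called at 12 h vs 0 h, 48 h vs 0 h and 48 h vs 12 h, and the block changed none of the calls for named peaks and sums. Libraries of 6283103 to 8112895 reads in peaks left the smallest peaks with 3 reads or fewer at 0 h, where ratios have wide intervals.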
